A study of Danio rerio with 16 samples.

Results

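The genes described here are the nuclear-encoded genes of the mitochondrial respiratory chain in whole zebrafish (Danio rerio) embryos. They were chosen by symbol alone, as all genes of the deposited expression table whose symbol begins with nduf, uqcr, sdha, sdhb, sdhc, sdhd or atp5, or with cox followed by a digit from 4 to 8. That gave 102 of 32513 entries. By known role, 89 of them encode subunits: 37 of complex I, 5 of complex II, 8 of complex III, 23 of complex IV and 16 of complex V. The other 13 are not subunits, although their symbols share the prefixes: 7 assembly factors of complex I, 4 of complex II, cox7a3 (now cox7a2l) and atp5s (now dmac2l). Subunits encoded in the mitochondrial genome were not analysed here.

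The study compared unexposed embryos with embryos kept under radiofrequency radiation (RFR), labelled 5G, with a frequency of 3.5 GHz and a power near 30 dBm. Exposure ran from 6 hours post fertilization (hpf) to 48 hpf. Embryos of both kinds were taken at 48 hpf, when exposure ended, and at 120 hpf, with 4 libraries of total RNA in each of the 4 groups. No genotype, strain or transgene is named in the labels. Neither the number of embryos in a library nor separate clutches are stated, so the p-values describe library-to-library spread alone, and that spread may be technical.

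The respiratory chain passes electrons from NADH (complex I) and succinate (complex II) through ubiquinone, complex III and cytochrome c to oxygen at complex IV, and the protons pumped on the way drive ATP synthesis by complex V. Complex II also works in the tricarboxylic acid cycle and has no mitochondrially encoded subunit. Several subunits of complex IV and the c ring of complex V come in isoforms made by separate genes. In mammals cox6a2, cox7a1 and cox8b are the heart and skeletal muscle forms, and cox4i2 is a lung form that responds to oxygen.

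Levels are FPKM (fragment counts scaled to transcript length and library size). The libraries held 39603976 to 49232542 filtered reads. The mapped percentage lay between 69.4 and 71.8 in 48 hpf libraries and between 66.2 and 67.6 in 120 hpf libraries. Control 120 hpf replicate 1 had 3.2% rRNA reads, and all other libraries had 0.15 to 0.30%. Replicates 1 to 3 of every group had the same number of raw reads to 2 decimals (47.48 M, where M stands for 1e6) and each replicate 4 had another number. Comparisons between genes below are of FPKM levels. Fold changes are differences of log2(FPKM + 0.5) tested with limma, with Benjamini-Hochberg adjustment over the 23026 genes that reached 0.5 FPKM in at least 4 libraries. A gene was called at an adjusted p under 0.05. For the median member the 95% confidence interval of a fold change reached 0.23 log2 units, or 1.17-fold, to either side.

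All 102 members passed the filter. Complex V genes had the highest levels, with a median of 197 FPKM over its 16 genes in 48 hpf controls and a top value of 550 ± 53.8 FPKM (SD, n = 4) for atp5b, the catalytic beta subunit. The median was 123 FPKM for complex III, 80.1 for complex IV, 69.8 for complex I, 53.3 for complex II and 7.05 for the 13 assembly or regulatory genes. The highest mean in the other classes belonged to cox6a1 (387 ± 8.95 FPKM), the ubiquitous form of subunit 6A, to uqcrq (207 ± 8.72), ndufb8 (152 ± 3.76), cox7a3 (99.7 ± 6.01) and sdhb (75.4 ± 4.99). A few members were barely expressed. The paralog ndufs8b lay at 0.06 FPKM or less in every 48 hpf library and between 0.54 and 1.03 FPKM at 120 hpf, and it passed the filter through the 120 hpf libraries alone. The same held for ndufa4l2, listed at 0 in all 8 libraries of 48 hpf and at 0.16 to 1.5 FPKM at 120 hpf. The anchor gene sdhda stood at 0.14 to 1.70 FPKM in all 16 libraries, while its paralog sdhdb lay at 28.0 to 39.8 FPKM.

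Between 48 and 120 hpf in control embryos, most changes of respiratory chain genes were small rises. Larger ones included sdha and sdhb of complex II, the assembly or regulatory genes sdhaf2 and atp5s, and a few complex IV isoforms. Of the 102 members, 52 rose and 6 fell, against a background of 66.1% of all tested genes called in either direction, 38.3% higher and 27.9% lower. The rises include ndufs8b and ndufa4l2, which passed the filter through the 120 hpf libraries alone, so that the filter fixed their direction. They are set aside in the counts that follow. Of the other 100 members, 50 rose and 6 fell, and their median fold change was 0.24 on the log2 scale beside 0.12 for all tested genes. Of the 100, 9 rose by 2-fold or more and 0 fell by as much, where 18.2% of all genes rose and 8.08% fell by 2-fold or more (26.3% in either direction). By class, 18 of 36 complex I genes rose and 2 fell, and 4 of 5 complex II genes rose, among them sdhda, whose levels lay near the filter. In complex III 3 of 8 rose, in complex IV 10 of 22 rose and 1 fell, and in complex V 7 of 16 rose and 2 fell. Of the 13 assembly or regulatory genes, 8 rose and 1 fell. With replicates 1 to 3 alone, 48 of the 100 rose and 2 fell, where 60.9% of all tested genes were called in either direction. Most rises were small, and the balance moved with the scaling. With the FPKM values rescaled by median ratios 27 of the 100 rose and 10 fell, beside 66.7% of all tested genes called in either direction. With quantile normalization 46 of the 100 rose and 8 fell, beside 66.2% of all tested genes called in either direction. The split of all tested genes by direction was not taken in these alternatives, so the members' balance there has no matching background. Quantile normalization moved the median of all genes from 0.12 to -0.14, and the members lay above the median of all genes by 0.12 as deposited, 0.34 with quantile normalization and 0.10 with median-ratio scaling. Under all 3 scalings 25 of the 100 rose and 5 fell, and the matching count over all tested genes was not taken.

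**Figure D1:**
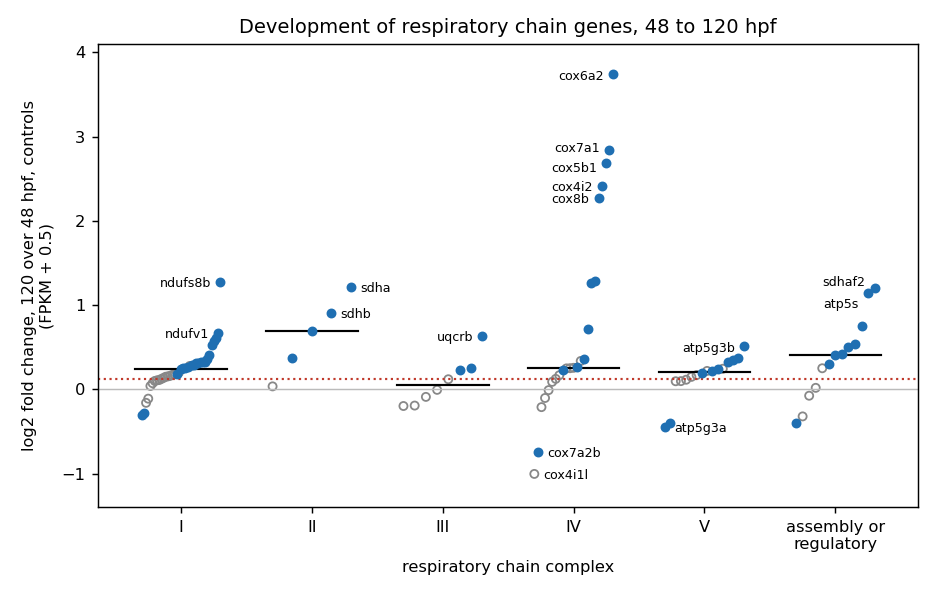
Change of each of the 102 genes from 48 to 120 hpf in control embryos, as a log2 fold change of FPKM + 0.5, grouped by complex. Filled points passed the test at an adjusted p under 0.05 and open points did not, black lines are class medians, and the dotted line is the median of all tested genes (0.12); 5 complex IV isoforms stand above a log2 fold change of 2.

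Complex II, the succinate dehydrogenase that links the tricarboxylic acid cycle to the chain, had the largest relative rise of any complex. Its summed level went from 222 ± 6.70 to 386 ± 17.7 FPKM in controls (SD, n = 4 each), a ratio of 1.74. The corresponding ratios were 1.16 for complex I, 1.09 for complex III, 1.16 for complex IV, 1.15 for complex V and 1.34 for the assembly or regulatory genes. The flavoprotein gene sdha, whose product oxidizes succinate, stood at 61.69, 63.57, 56.35 and 60.30 FPKM in control 48 hpf replicates 1 to 4 and at 137.13, 135.31, 152.64 and 140.52 FPKM at 120 hpf. The groups were far apart, with a log2 fold change of 1.22 ± 0.072 (SE; limma adjusted p = 3.41e-10). The iron-sulfur subunit gene sdhb stood at 79.72, 77.08, 68.21 and 76.66 FPKM at 48 hpf and at 152.07, 137.85, 146.34 and 130.66 FPKM at 120 hpf, again without overlap (log2 fold change 0.91 ± 0.073, limma adjusted p = 1.61e-08).

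The membrane anchor genes did not rise by as much. The level of sdhc went from 53.3 ± 1.69 to 69.2 ± 7.12 FPKM, a log2 fold change of 0.37 ± 0.077 (limma adjusted p = 5.14e-04). The other anchor gene, sdhdb, lay at 32.96, 28.99, 33.12 and 33.74 FPKM at 48 hpf and at 30.79, 35.15, 34.87 and 31.26 FPKM at 120 hpf, and these ranges overlapped. Its log2 fold change was 0.04 with a 95% interval from -0.17 to 0.24, and it turned to -0.09 under median-ratio scaling. The ratio of sdha to sdhb itself rose by 0.31 ± 0.072 on the log2 scale (limma adjusted p = 9.86e-04, over 2526 gene pairs). The low anchor gene sdhda had a log2 fold change of 0.69, whose call was lost under quantile normalization (limma adjusted p = 0.536), in a fit of the 2 groups alone (0.051) and without control 48 hpf replicate 2 (0.0727) or control 120 hpf replicate 2 (0.0819). Its control mean was 0.39 FPKM at 48 hpf and 0.99 FPKM at 120 hpf. It may have passed the filter mainly through the 120 hpf libraries, which would largely fix its direction, and this was not checked.

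All 4 complex II assembly factors caught by the prefixes rose in controls, and they are named here after their values were seen. The gene sdhaf2, whose product attaches the flavin to sdha, lay between 13.4 and 17.9 FPKM at 48 hpf and between 34.1 and 37.1 FPKM at 120 hpf (log2 fold change 1.2 ± 0.106, limma adjusted p = 4.84e-08). The others were sdhaf1 at 0.76 and sdhaf3 at 0.41, which act on the iron-sulfur clusters of sdhb, and sdhaf4 at 0.54, which binds flavinated sdha. The limma adjusted p of sdhaf3 was 0.0667 under median-ratio scaling and 0.154 with quantile normalization, so its call was lost under both.

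**Figure D2:**
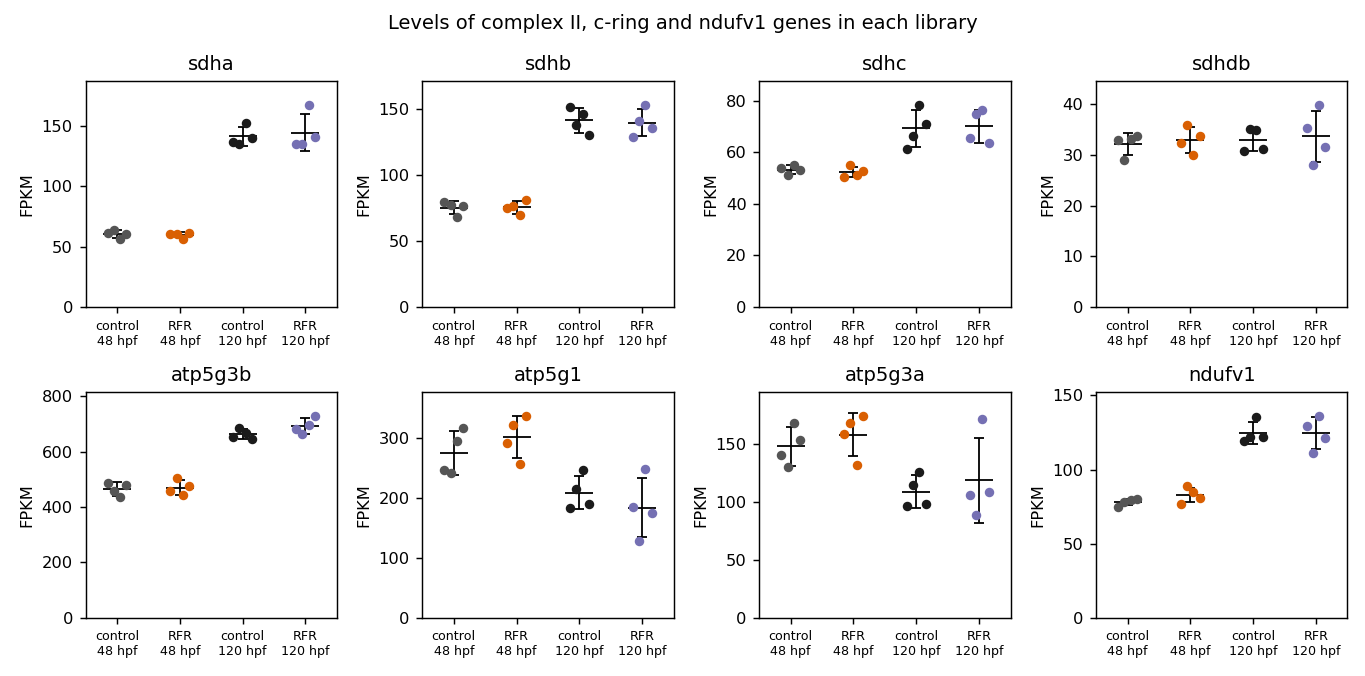
FPKM of 8 genes in every library of the 4 groups (points), with the group mean and SD (bars, n = 4). The genes sdha, sdhb, atp5g3b and ndufv1 are higher at 120 than at 48 hpf with no overlap, sdhdb overlaps between all groups, and the means of atp5g1 and atp5g3a are lower at 120 hpf.

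In complex I, 6 of the 7 core subunit genes rose, ndufs3 being the exception (log2 fold change 0.14, limma adjusted p = 0.192), as did 12 of the 29 other subunit genes apart from ndufs8b. The largest rise of a gene above 1 FPKM was that of ndufv1, which encodes the subunit that binds NADH and FMN. Its level was 74.97, 77.89, 79.73 and 79.95 FPKM in the 48 hpf controls and 119.45, 122.03, 135.67 and 121.80 FPKM in the 120 hpf controls (log2 fold change 0.67 ± 0.070, limma adjusted p = 3.26e-07). The accessory subunit gene ndufa3 followed at 30.3 ± 1.63 and 46.7 ± 2.25 FPKM, a log2 fold change of 0.61. The highest gene of the complex, ndufb8, had a log2 fold change of 0.26, which did not pass under median-ratio scaling (limma adjusted p = 0.198).

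Both falls in complex I were small, and their calls depended on which libraries entered and on the scaling. The accessory subunit gene ndufa10 went from 71.1 ± 6.80 to 57.7 ± 4.52 FPKM (log2 fold change -0.30). Its call was lost without control 48 hpf replicate 3 or 4, control 120 hpf replicate 1 or all replicates 4, with adjusted p-values of 0.0516 to 0.092. The acyl carrier protein gene ndufab1b went from 59.1 ± 6.65 to 48.5 ± 3.18 FPKM (-0.28), and 13 of 26 alternatives ended its call, with adjusted p-values from 0.0506 to 0.176. Under median-ratio scaling ndufa10 (-0.42, limma adjusted p = 0.00314) and ndufab1b (-0.40, 0.00376) were both called. There ndufb3 was called lower as well (-0.29, 0.019). With quantile normalization ndufa10 was called (-0.24, 0.0246) and ndufab1b was not (-0.21, 0.0723). The share of ndufab1b in the summed FPKM of ndufab1a and ndufab1b fell from 47.7 ± 3.08% to 39.8 ± 0.805%.

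Complex III had the lowest median change, 0.06 on the log2 scale, below the 0.12 of all tested genes in the values as deposited. With quantile normalization, where the median of all tested genes was -0.14, complex III did not lie below it. Only uqcrb, a subunit that lies near the ubiquinone site, moved by more than 1.5-fold: it stood at 130.91, 110.13, 130.10 and 142.41 FPKM in controls at 48 hpf and at 176.99, 193.09, 238.94 and 190.77 FPKM at 120 hpf. These values did not overlap (log2 fold change 0.63 ± 0.112, limma adjusted p = 1.06e-04). The core protein genes uqcrc2a and uqcrc2b changed their balance. The former rose from 69.3 ± 2.61 to 82.8 ± 3.13 FPKM (0.26, although an adjusted p of 0.0722 under median-ratio scaling), and the share of the latter in their sum fell from 55.3 ± 0.680% to 47.5 ± 0.978% (limma adjusted p = 0.00124). The Rieske iron-sulfur protein gene uqcrfs1 had a log2 fold change of -0.01 with a 95% interval from -0.26 to 0.25.

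Complex IV, cytochrome c oxidase, held the largest changes, and those above a log2 fold change of 2 were in minor isoforms of its subunits. The gene cox6a2 stood at 1.70, 3.68, 0.81 and 2.14 FPKM in control 48 hpf replicates 1 to 4 and at 35.0, 33.91, 24.51 and 32.64 FPKM at 120 hpf. The mean rose 15.1-fold, with a log2 fold change of 3.74 ± 0.278 (limma adjusted p = 5.65e-09). The gene cox7a1 stood at 2.28, 1.34, 1.96 and 2.85 FPKM and then at 17.23, 17.26, 17.51 and 18.93 FPKM (log2 fold change 2.84 ± 0.150, limma adjusted p = 8.60e-11). Neither pair of groups overlapped.

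The subunit 4 isoform gene cox4i2 stood at 7.91, 5.21, 4.18 and 8.02 FPKM at 48 hpf and at 36.40, 34.55, 32.97 and 35.16 FPKM at 120 hpf, a 5.49-fold higher mean (log2 fold change 2.41 ± 0.192, limma adjusted p = 1.26e-08). For cox8b the values were 8.02, 6.95, 5.39 and 5.91 FPKM and then 23.57, 35.88, 39.45 and 37.01 FPKM (2.27 ± 0.171, limma adjusted p = 6.52e-09). Both subunit 5B genes, named after their values were seen, rose: cox5b1 (now cox5bb) from 1.97 ± 0.622 to 15.1 ± 2.35 FPKM (log2 fold change 2.68) and cox5b2 from 8.31 ± 2.14 to 20.7 ± 5.38 FPKM (1.26). These were the only 2 subunit 5B genes that the prefixes caught, and their sum rose from 10.3 ± 1.59 to 35.9 ± 6.67 FPKM.

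The balance within several isoform pairs of complex IV shifted. Within subunit 5B, cox5b1 went from 20.2 ± 10.2% to 42.8 ± 6.78% of the sum of cox5b1 and cox5b2 in controls, a pair that was not tested as a ratio. In the pairs of subunits 4, 6A, 7A and 8 the minor form stayed the minor one. The share of cox4i2 in the summed FPKM of cox4i1 and cox4i2 rose from 2.03 ± 0.590% to 8.77 ± 0.799% in controls (SD, n = 4 each). The share of cox6a2 beside cox6a1 rose from 0.535 ± 0.312% to 5.98 ± 1.1%. Beside cox7a2a, cox7a1 rose from 1.5 ± 0.414% to 10.8 ± 1.25%, and beside cox8a, cox8b rose from 1.88 ± 0.407% to 10.1 ± 1.37%. The limma adjusted p of the log2 ratio was 1.69e-07, 1.05e-08, 1.52e-10 and 8.49e-11 in that order. The share of cox7a2b beside cox7a2a fell from 28.1 ± 5.03% to 17.9 ± 1.82% (limma adjusted p = 6.96e-04), and cox7a2b itself fell from 54.7 ± 11.5 to 32.1 ± 2.21 FPKM (log2 fold change -0.74 ± 0.156, limma adjusted p = 5.63e-04).

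**Figure D3:**
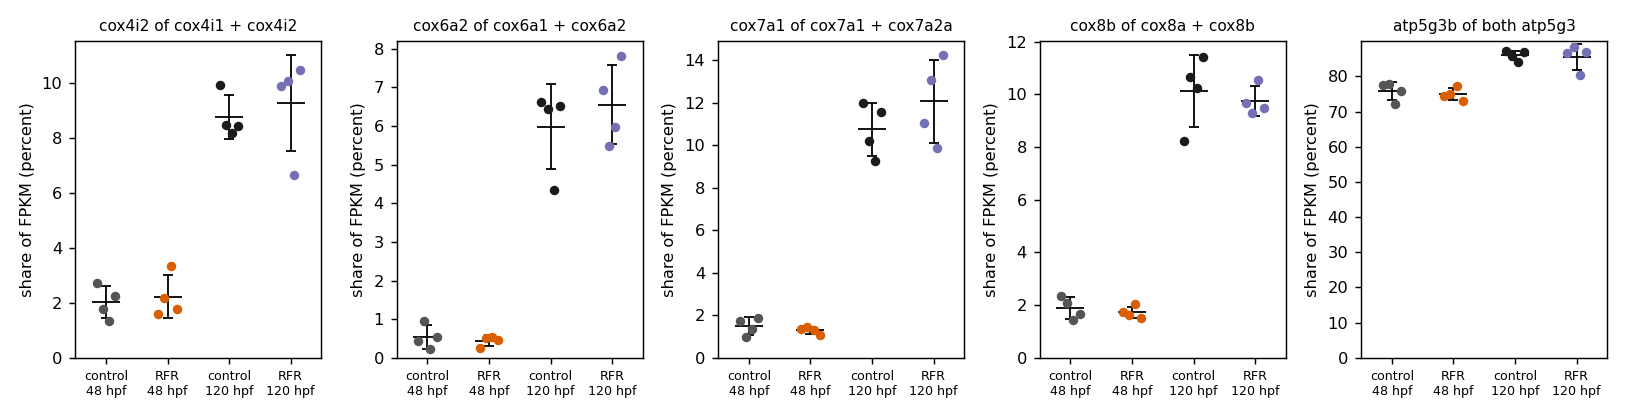
Share of 1 isoform gene in the summed FPKM of a pair, in percent, in every library of the 4 groups (points), with the group mean and SD (bars, n = 4). All 5 shares are higher at 120 than at 48 hpf with no overlap in controls, and the RFR libraries lie beside the controls of the same stage.

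The named markers of muscle tissue did not move as a block over the same interval. Of 16 skeletal muscle marker genes 6 rose and 7 fell in controls (median log2 fold change -0.07), and of 8 heart markers 1 rose and 2 fell. The summed level of the skeletal muscle markers was 41839 to 45044 FPKM at 48 hpf and 42965 to 48580 FPKM at 120 hpf, and that of the heart markers 89.2 to 99.0 and 101 to 114 FPKM. None of these markers was at 0. Other markers moved strongly. The 8 exocrine pancreas markers all rose, from a sum of 6.00 to 8.11 FPKM to a sum of 9579 to 11528 FPKM. The 8 erythroid markers all fell. Of all tested genes 38.3% rose and 27.9% fell. Some pancreas markers may have passed the filter through the 120 hpf libraries alone, which would fix their direction, and this was not checked. The part of the markers in the member results was not tested. In RNA of whole embryos, fewer cells of a type and less RNA per cell cannot be told apart.

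Among the ubiquitous complex IV genes, the highest, cox6a1, rose from 387 ± 8.95 to 499 ± 30.3 FPKM (log2 fold change 0.36, limma adjusted p = 0.00149, and 0.225 under quantile normalization). Of the genes not called, those with the highest levels were cox4i1 (log2 fold change 0.25, limma adjusted p = 0.0503), cox6c (0.25, 0.0606), cox8a (-0.21, 0.0924) and, in complex V, atp5f1 (0.10, 0.381) and atp5c1 (0.11, 0.24). Of these, cox8a was called lower under both other scalings (-0.43, limma adjusted p = 0.00119, with quantile normalization and -0.34, 0.0112, with median ratios) and in 3 further alternatives. The gene cox4i1 was called higher in 8 of 26 alternatives and cox6c in 5. The subunit 5A genes cox5aa and cox5ab had log2 fold changes of -0.01 and 0.26, the latter with a call that 16 of 26 alternatives ended. Their log2 ratio was called (limma adjusted p = 0.0351), with cox5ab at 31.4 ± 1.52% and 35.6 ± 3.80% of the sum. For cox6b1 and cox6b2 the ratio was not called (limma adjusted p = 0.298).

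A paralog of subunit 4, cox4i1l, varied widely among libraries of the same group. It stood at 19.81, 27.04, 5.63 and 8.37 FPKM in the 48 hpf controls and at 8.32, 5.08, 6.11 and 5.28 FPKM in the 120 hpf controls, with overlap. Its log2 fold change was -1.0 ± 0.507 (limma adjusted p = 0.0923). Without control 48 hpf replicate 3 it was -1.37 (limma adjusted p = 0.0273). The ndufa4 family, counted with complex IV, was carried by ndufa4l (now ndufa4a), at 341 ± 17.7 FPKM in the 48 hpf controls against 62.9 ± 11.9 for ndufa4 (now ndufa4b).

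In complex V, the genes of the c ring, through which protons pass, changed in opposite directions. The gene atp5g3b (now atp5mc3b) stood at 487.64, 458.76, 434.72 and 480.21 FPKM in the 48 hpf controls and at 654.07, 686.63, 669.14 and 644.64 FPKM in the 120 hpf controls, without overlap (log2 fold change 0.51 ± 0.059, limma adjusted p = 1.12e-06). The other c-ring genes fell: atp5g1 (now atp5mc1) from 275 ± 37.1 to 209 ± 28.2 FPKM (-0.39, limma adjusted p = 0.042) and atp5g3a (now atp5mc3a) from 148 ± 16.7 to 109 ± 14.2 FPKM (-0.45, limma adjusted p = 0.023). Neither call held without every library. The call of atp5g1 was lost without control 48 hpf replicate 3 or 4 or without control 120 hpf replicate 1, 2 or 4 (adjusted p 0.0586 to 0.119), and that of atp5g3a without control 48 hpf replicate 3 or control 120 hpf replicate 1 or 4 (0.0615 to 0.0696). Without replicates 4 they stood at 0.244 and 0.131. Both genes were called under both other scalings. The limma adjusted p with median ratios was 0.00886 for atp5g1 and 0.00447 for atp5g3a. With quantile normalization it was 0.00317 and 0.00542. The median of all tested genes was 0.02 and -0.14 in these scalings, below the 0.12 as deposited.

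The shift within the c ring held as a ratio. In controls, atp5g3b made up 52.5 ± 3.62% of the summed FPKM of the c-ring genes at 48 hpf and 67.7 ± 2.52% at 120 hpf, while their sum went from 888 ± 50.2 to 981 ± 55.9 FPKM. The log2 ratio of atp5g3a to atp5g3b fell by 0.96 ± 0.155 (limma adjusted p = 3.41e-05). In controls atp5g1 and atp5g3a kept a near-constant ratio, with atp5g3a at 35.1 ± 1.78% and 34.3 ± 0.429% of their sum. After RFR that share went from 34.5 ± 0.622% to 39.2 ± 2.19%, and the log2 ratio of atp5g1 to atp5g3a was called (-0.29, limma adjusted p = 0.00299). The difference of the RFR effects on this ratio was not called (limma adjusted p = 0.79). Sequences of these copies were not compared here and the program behind the FPKM values is not known, so reads that fit several copies may be shared between them.

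The other complex V genes rose a little or did not pass. The subunit e gene atp5ib rose from 181 ± 4.06 to 235 ± 16.3 FPKM (log2 fold change 0.37). The catalytic subunit gene atp5b went from 550 ± 53.8 to 690 ± 48.1 FPKM (0.33, limma adjusted p = 0.00646), but its adjusted p was 0.0695 under median-ratio scaling and 0.0744 under quantile normalization.

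Among the remaining assembly or regulatory genes, the largest rise was that of atp5s, from 4.54 ± 0.699 to 10.6 ± 1.33 FPKM (log2 fold change 1.14, limma adjusted p = 1.97e-06). The gene cox7a3, whose mammalian counterpart helps join complexes III and IV, rose from 99.7 ± 6.01 to 123 ± 4.36 FPKM (0.30, although an adjusted p of 0.0719 under median-ratio scaling). The complex I assembly factor ndufaf7, a methyltransferase in humans, was the 1 member of this class that fell, from 4.15 ± 0.467 to 3.03 ± 0.309 FPKM (-0.40, limma adjusted p = 0.0093).

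Of 17 member pairs compared as ratios, 13 changed between 48 and 120 hpf in controls, beside 66% of all 2526 gene pairs tested. The pair of ndufs8a and ndufs8b is one of the 13, and the filter fixed its direction, which leaves 12 of 16. The rule for pairs, by symbols ending in a and b, also took sdha and sdhb, which are different subunits and not paralogs. Without both pairs it was 11 of 15 paralogous pairs. After RFR the counts were 12 of 17, 11 of 16 and 10 of 15 in the same order, beside 65.7% of all pairs.

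After RFR exposure, 37 members rose and 6 fell from 48 to 120 hpf, with a background of 65.3% of genes called in either direction, 36.1% higher and 29.2% lower. Without the 2 genes set aside above, 35 of 100 rose and 6 fell, with a median of 0.13 on the log2 scale beside 0.08 for all tested genes. The split moved with the settings in both directions. Of the 100, 35 rose and 12 fell with quantile normalization, 31 and 9 with median ratios, 34 and 10 with library weights, and 36 and 2 with replicates 1 to 3 alone. The shares of all tested genes called in either direction were 65.7%, 65.6%, 67.2% and 59.6% in that order. Their split by direction was not taken in these settings. Without RFR 120 hpf replicate 3, 32 rose and 12 fell with a median of 0.05, and without RFR 120 hpf replicate 2, 39 rose and 3 fell with a median of 0.20. By the same threshold 33 of the 100 rose and 4 fell in both sets of embryos, and 0 were called in opposite directions. The matching counts over all tested genes were not taken, so these numbers describe the members alone. Whether the stage change differed between RFR and control is the test of the difference of RFR effects given below, with 0 members called. The large changes lay side by side in both sets: the log2 fold change after RFR was 3.75 for cox6a2, 2.96 for cox7a1, 2.30 for cox4i2, 2.32 for cox8b, 1.26 for sdha and 0.88 for sdhb.

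At 48 hpf, at the end of exposure, 0 of the 102 members differed between RFR and control embryos by limma, beside 1 of 23026 genes, or 0.00434%. At an unadjusted p under 0.05 there were 1 higher and 2 lower members, where 9.47% of all genes passed in either direction, 7.3% higher and 2.17% lower. The smallest adjusted p of a member was 0.324. The median difference was 0.02 on the log2 scale over the members and 0.04 over all tested genes. The members' median was -0.03 under median-ratio scaling, and it ran from -0.005 to 0.04 when single libraries were left out. Over the 5 complex II genes, the smallest class, the differences ran from -0.09 (sdhda) to 0.03 (sdhdb). The first turned to 0.06 with replicates 1 to 3 alone and the second to -0.03 under median-ratio scaling. The mean of sdhda was low, at 0.39 FPKM in controls and 0.33 FPKM after RFR. The widest 95% interval of the class reached 0.52 log2 units to either side. For sdha the 95% interval ran from -0.17 to 0.14, and for atp5g3b from -0.11 to 0.14. Without RFR 48 hpf replicate 1, 389 of all genes were called (1.69%) and still 0 members.

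The 3 members with an unadjusted p under 0.05 at 48 hpf were ndufaf7, sdhaf4 and ndufa4l2a. The methyltransferase gene ndufaf7 had 4.06, 4.83, 3.95 and 3.77 FPKM in the controls, and the values were 3.44, 2.33, 3.14 and 3.46 FPKM after RFR, without overlap (log2 difference -0.38 ± 0.123, limma adjusted p = 0.324). The complex II assembly factor gene sdhaf4 had 5.78, 7.15, 7.21 and 8.04 FPKM in the controls but 5.21, 5.87, 6.24 and 5.86 FPKM after RFR, with overlap (-0.26 ± 0.112, limma adjusted p = 0.478). The paralog ndufa4l2a stood at 1.84, 2.13, 2.32 and 2.30 FPKM and at 1.94, 3.08, 2.78 and 3.04 FPKM, with overlap (0.27 ± 0.124, limma adjusted p = 0.521).

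Besides ndufaf7, the groups did not overlap for ndufaf5, a hydroxylase in humans and an assembly factor of complex I. It had 10.09, 10.29, 12.42 and 12.01 FPKM in the controls but 12.65, 12.55, 14.84 and 12.96 FPKM after RFR (0.24 ± 0.120, limma adjusted p = 0.572). These were the 2 members whose groups did not overlap, and 4.27% of all tested genes did not.

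In the other classes the members with the smallest p at 48 hpf were ndufb9 (0.15) and ndufa7 (-0.16) in complex I and uqcrq (0.05, but -0.01 under median-ratio scaling) and uqcrc2a (-0.10) in complex III. In complex IV cox6b1 had a log2 difference of -0.30, with 55.1 to 97.7 FPKM in controls and 44.0 to 76.2 FPKM after RFR. In complex V atp5ib stood at 0.10 and atp5j2 at -0.05, the latter of either sign when single libraries were left out. All of them had adjusted p-values of 0.6 or more by limma. The neuron markers were on the higher side in RFR embryos at this stage, 10 of 10 with 0 called by limma, 8 at an unadjusted p under 0.05 and a median of 0.28. Of all 23026 tested genes 13939 were on the higher side, and 7.3% were higher at that threshold. Lens (7 of 8) and exocrine pancreas (7 of 8) markers also leaned higher. The summed pancreas markers were low, at 6.00 to 8.11 FPKM in controls and 7.35 to 11.9 FPKM after RFR. Skeletal muscle (11 of 16) and intestine (4 of 6) markers lay near the share of all tested genes on the higher side. The summed level of the intestine markers was 639 to 850 FPKM in controls and 457 to 707 FPKM after RFR. Erythroid (7 of 8), heart (6 of 8) and liver (7 of 9) markers leaned lower. The summed level of the neuron markers was 556 to 629 FPKM in controls and 633 to 728 FPKM after RFR, with none at 0. The part of the markers in the member values was not tested.

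**Figure D4:**
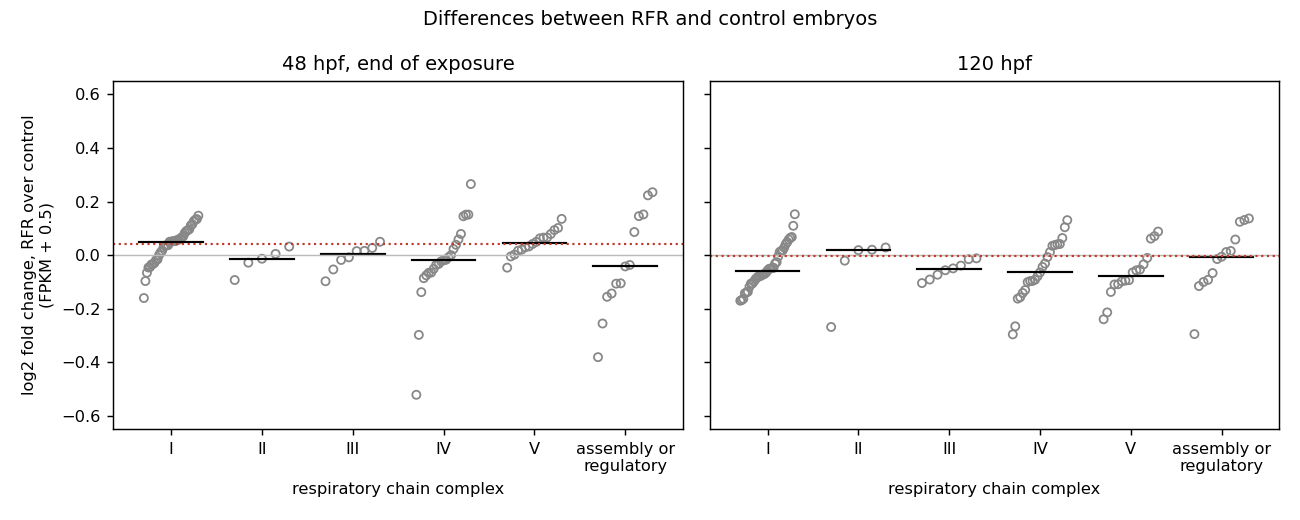
Difference between RFR and control embryos for each of the 102 genes at 48 hpf (left) and 120 hpf (right), as a log2 fold change of FPKM + 0.5, grouped by complex. Open points did not pass the test, and all points are open; black lines are class medians and the dotted line is the median of all tested genes, 0.04 at 48 hpf and -0.003 at 120 hpf.

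At 120 hpf, 72 hours after exposure ended, 0 members were called, beside 0 of all tested genes, with 0 higher and 2 lower members at an unadjusted p under 0.05 and 4.13% of all genes, 1.78% higher and 2.35% lower. The median member difference was -0.06 on the log2 scale and that of all tested genes -0.003, and 71 of the 102 members were on the lower side (69.6%), where 51.1% of all tested genes were. By complex, 26 of 37 genes were lower in complex I, 8 of 8 in complex III, 15 of 23 in complex IV and 13 of 16 in complex V, against 2 of 5 in complex II. For 0 members did the groups fail to overlap, where 2.11% of all genes did.

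That lean depended on which libraries entered, and the RFR libraries differed from each other across the chain. The summed FPKM of the members was 11063 to 14539 in the RFR group and 12022 to 13812 in controls, and the mean was 12457 ± 1474 against 12870 ± 780 (SD, n = 4 each). In RFR replicate 3, 80 of the 102 members had the highest value of their group, with a median deviation of 0.22 log2 units from the group mean. In RFR replicate 2, 70 members had the lowest, with a median deviation of -0.16. Without RFR replicate 3 the median difference was -0.13 over the members and -0.01 over all tested genes. In that fit 16 members, or 15.7%, had an unadjusted p under 0.05, as did 5.62% of all genes, and 0 were called. Replicate 3 was singled out by these same member values. Leaving it out had to lower the members, so that count is no separate support for a difference. Without RFR replicate 2, 2.94% of members passed that threshold, beside 3.12% of all genes. The members' median was 0.004 without RFR replicate 2, -0.02 without control 120 hpf replicate 3 and -0.08 without control 120 hpf replicate 1. The rRNA share of replicate 3 was 0.18% and its mapped share 66.2%, both within the range of the other 120 hpf libraries.

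**Figure D5:**
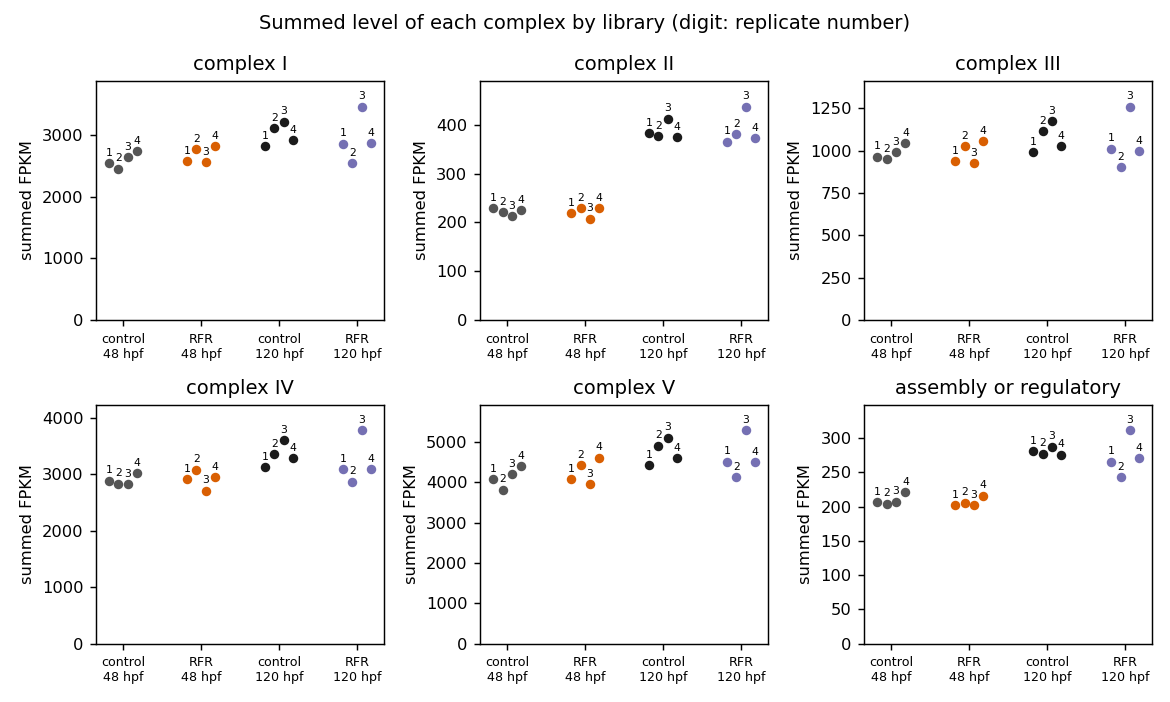
Summed FPKM of the genes of each complex in every library, by group, with the replicate number beside each point. RFR 120 hpf replicate 3 has the highest sum of its group in all 6 panels, and complex II is higher at 120 than at 48 hpf in all libraries.

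The members with an unadjusted p under 0.05 at 120 hpf were sdhaf4 and ndufb5. The assembly factor gene sdhaf4 had 8.92, 11.88, 10.85 and 10.20 FPKM in the controls, and the values were 8.45, 7.10, 9.51 and 8.69 FPKM after RFR, with overlap (log2 difference -0.29 ± 0.112, limma adjusted p = 1). The accessory subunit gene ndufb5 stood at 103.11, 99.08, 107.22 and 102.22 FPKM and at 85.30, 81.56, 108.56 and 92.27 FPKM, where replicate 3 alone lay above the controls (-0.17 ± 0.080, limma adjusted p = 1). On the higher side the smallest p of each class belonged to ndufb3 (0.15), sdha (0.03, but -0.04 without RFR 120 hpf replicate 3), ndufa4l (0.06), atp5g3b (0.06) and ndufaf6 (0.13). In complex III no member was on the higher side. On the lower side the others were sdhda (-0.27), uqcrc2a (-0.06), cox6a1 (-0.16) and atp5ia (-0.24).

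For the difference of the RFR effects between the 2 stages, 0 members were called by limma, as were 0 of all tested genes, and 1 member had an unadjusted p under 0.05, where 6.84% of all genes did, 2% higher and 4.84% lower. That member was cox6a1, with 387 ± 8.95 and 431 ± 23.9 FPKM in control and RFR embryos at 48 hpf and 499 ± 30.3 and 450 ± 66.0 FPKM at 120 hpf. The difference of its effects was -0.31 ± 0.122 on the log2 scale (limma adjusted p = 0.672). Without RFR 120 hpf replicate 3, 17 members, or 16.7%, had an unadjusted p under 0.05, where 6.92% of all genes did in that fit, and 0 were called. That library was singled out by the member values, as above, so this count is no separate support for a difference. Without RFR 120 hpf replicate 2, 0.98% of members passed that threshold, beside 6.56% of all genes. The members with the smallest p elsewhere were ndufa12 (-0.30), ndufa10 (0.15), sdhc (0.05), sdhda (-0.18), uqcrc2a (0.04), uqcrq (-0.10), ndufa4l (0.11), atp5ib (-0.24), atp5g3b (0.05), ndufaf7 (0.31) and ndufaf2 (-0.17). Of these, sdhc, sdhda and atp5g3b took either sign when libraries were left out.

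No isoform ratio of the members was called between RFR and control embryos. At 48 hpf 0 of 17 member pairs were called, beside 0.0396% of all pairs, and at 120 hpf 0, beside 0%. At an unadjusted p under 0.05 there were 0 and 1 member pairs, and the share of all pairs at that threshold was not taken. In RFR embryos at 120 hpf cox4i2 made up 9.28 ± 1.76% of its pair, cox6a2 6.56 ± 1.03%, cox7a1 12.1 ± 1.96% and cox8b 9.74 ± 0.568%. One pair, atp5g1 and atp5g3a, did not overlap between the groups at 120 hpf, where 2.18% of all pairs did not. The share of atp5g3a was 34.4, 34.8, 33.9 and 34.0% in control replicates 1 to 4 and 36.4, 41.0, 40.8 and 38.5% in RFR replicates 1 to 4. The log2 ratio of atp5g1 to atp5g3a differed by -0.30 (limma adjusted p = 0.648 over the 2526 pairs). At 48 hpf the shares overlapped, at 35.1 ± 1.78% in controls and 34.5 ± 0.622% after RFR.

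Genes of the chain and its surroundings that the prefixes do not catch give the setting for these values. In controls from 48 to 120 hpf, 19 of 47 further assembly factors rose and 6 fell, led by uqcc3 (log2 fold change 1.70) and ttc19 (1.17), both factors of complex III. Of 22 other subunits and electron carriers 7 rose and 4 fell, with the ubiquinone synthesis genes coq8aa (1.51) and coq9 (0.97) first. Of 17 mitochondrial carriers and channels 8 rose and 3 fell. Among them ucp1, an uncoupling protein in mammals, went from 8.27 ± 1.98 to 469 ± 96.5 FPKM (5.75), and the phosphate carrier gene slc25a3a went from 0.425 ± 0.158 to 23.7 ± 3.04 FPKM (4.71).

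Of 21 tricarboxylic acid cycle and pyruvate dehydrogenase genes 12 rose and 1 fell, with pdha1b (2.48) and mdh2 (0.92, malate dehydrogenase) at the smallest p. The level of pdha1b was 0.335 ± 0.41 FPKM in controls and 0.115 ± 0.0759 FPKM after RFR at 48 hpf. At 120 hpf it was 3.9 ± 1.01 and 3.74 ± 0.775 FPKM. Like slc25a3a, it may have passed the filter mainly through the 120 hpf libraries, which would largely fix its direction, and this was not checked. Of 23 genes of mitochondrial biogenesis 9 rose and 8 fell, among them ppargc1b, a coactivator, at 1.31 and gabpa, a factor that binds promoters of respiratory chain genes in mammals, at -1.15. Over the 5 lists 77 of 130 genes were called, or 59.2%, beside the 66.1% of all tested genes.

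In none of these 5 lists was a gene called between RFR and control by limma at either stage, at an unadjusted p under 0.05 there being 8 of 130 at 48 hpf (6.15%, beside 9.47% of all tested genes) and 4 at 120 hpf (3.08%, beside 4.13%). At 48 hpf the genes with the smallest p were sirt3, the mitochondrial deacetylase (3.78 ± 0.490 and 6.08 ± 0.973 FPKM in control and RFR, limma adjusted p = 0.235), esrrga (0.326), higd2a (0.387), higd1a (0.418), slc25a4 (0.367), slc25a1a (0.702), coq9 (0.456), coq10b (0.607), pcxb (0.475) and ogdhb (0.549). At 120 hpf they were smim20, coa3b, coq8aa, coq10b, ucp3, vdac1, polg2, polrmt, idh3a and pdha1a, with log2 differences from -0.30 (coa3b) to 0.61 (ucp3) and all adjusted p-values at 1. For the difference between stages they were higd1a, coa3b, coq10b, coq3, slc25a4, slc25a11, sirt3, polrmt, ogdhb and pdha1a, and 0 were called.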

How the data were processed

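Total RNA of whole embryos was sequenced from 16 libraries in 4 groups of 4, with paired reads from a DNBseq-G50 sequencer, per the labels. The authors deposited FPKM values per gene and library, scaled to transcript length and library size and rounded to 2 decimals; per the file headers each library has its own column. HISAT2, Bowtie2, DESeq2 and the GRCz11 build appear in the submitters' processing notes without versions or roles. The tool behind the FPKM calculation is not given in the sources used. Per the file headers, the authors also deposited a count of filtered reads and of detected genes per library, the raw read total, and the percent of reads that mapped or came from rRNA.

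FPKM values are not counts, so no count test was run. In R 4.3.3, limma 3.58.1 was fitted to log2(FPKM + 0.5) with a mean-variance trend and 1 mean per group (12 residual degrees of freedom). The fit took the 23026 of 32513 genes that reached 0.5 FPKM in 4 or more libraries, and p-values were two-sided and adjusted over all of them by the Benjamini-Hochberg method. Isoform pairs were tested with limma as log2 ratios within a library, over 2526 pairs of symbols that differ in a final a or b, with further member pairs added by hand. The fits were tested on simulated data, with noise drawn independently for each gene and library. Such data hold no shift shared across a library, like that of RFR 120 hpf replicate 3, so this check cannot speak for such shifts. Precision is limited by the 4 libraries per group, and counts per gene were not used here.

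Symbols are those of the deposited table. By gene ID, 101 of the 102 members matched a RefSeq gene table of assembly GRCz12tu, which served for naming alone, and 20 of these have another current symbol. The ndufa4 family was placed in complex IV by known role. Named members were the called ones or, failing any, those with the smallest p per class and direction for RFR, the largest called changes per class for development, the highest gene of each class, members of pairs and the highest genes not called. Other members, such as cox5b1, cox5b2, sdhaf1, sdhaf3, sdhaf4 and ndufs3, were named after their values were seen. Members and lists were chosen with earlier results of these data known. Alternatives were other pseudocounts, no filter, 2 other scalings, fits of 2 groups, a replicate block, library weights, replicates 1 to 3 alone and each library left out. A batch term for replicate 4 was added after seeing the data.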

Additional observations from a re-analysis of the deposited data

Results flagged for a closer look

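In 13 of 246 groups of 4 libraries examined, 1 library lay far from the other 3, by a gap that Dixon's criterion passes at the 95% level. Chance gives about 1 such group in 20, and no explanation was weighed.

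In controls at 48 hpf, sdhdb was low in replicate 2, at 28.99 FPKM against 32.96 to 33.74 FPKM in the others. The summed level of the assembly or regulatory genes was high in replicate 4, at 221.62 against 204.64 to 207.29 FPKM. In RFR embryos at 48 hpf, sdha was low in replicate 3 (56.62 against 60.69 to 61.47 FPKM), cox6a2 was low in replicate 1 (1.08 against 2.09 to 2.25 FPKM) and cox7a2a was high in replicate 2 (158.07 against 142.12 to 143.99 FPKM).

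In controls at 120 hpf, ndufv1 was high in replicate 3 (135.67 against 119.45 to 122.03 FPKM). Replicate 4 was high for cox7a1 (18.93 against 17.23 to 17.51 FPKM) and low for cox7a3 (116.17 against 124.42 to 125.15 FPKM).

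Of the RFR libraries at 120 hpf, replicate 2 was low for ndufa10, at 49.07 against 65.49 to 68.07 FPKM, and for cox6a2, at 22.0 against 34.1 to 36.3 FPKM. The subunit 4 genes diverged in replicate 3, where cox4i1 was high (443.69 against 322.33 to 335.95 FPKM) and its paralog cox4i2 was low (31.69 against 36.88 to 37.76 FPKM). In replicate 4, uqcrc2a was low at 77.65 against 80.06 to 80.41 FPKM.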

How the results depend on the processing

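For RFR against control at either stage and for the difference of the RFR effects, 0 members were called under every setting run. In control development the main 58 calls ranged from 39 (median-ratio scaling) to 61 (2 groups only, library weights), and from 49 to 62 with single libraries left out. Of all tested genes 66.7% were called with median ratios, 65.2% with 2 groups only and 67.7% with library weights. After RFR the main 43 ranged from 40 (replicates 1 to 3 alone, beside 59.6% of all tested genes) to 49 (quantile normalization, beside 65.7%). With single libraries left out the count ran from 39 to 46. These counts include the 2 members set aside. The 13 isoform pairs became 10 to 13, and 12 with replicates 1 to 3 alone, where 61.8% of all pairs were called. At an unadjusted p under 0.05 these replicates left 1 of 3 members at 48 hpf and 1 of 2 at 120 hpf by count.

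With the replicate block, 58 members were called in control development, 47 after RFR and 13 pairs, and 0 between RFR and control. In that fit 66.7% of all tested genes were called in control development and 65.8% after RFR, and 67% of all pairs in control development. By the criterion used, a correlation over 0.1 in every pair, the replicate numbers were not taken to pair the libraries. Correlations of same-numbered libraries ran from -0.111 to 0.308 between RFR and control at 48 hpf, from 0.0578 to 0.276 at 120 hpf, from -0.157 to 0.174 between stages in controls and from -0.0627 to 0.185 after RFR. Replicate 4 correlated best with replicate 4 in all 4 comparisons (0.308, 0.273, 0.174 and 0.185), while replicates 1 and 2 did so in none. With replicate 4 as a batch term, 59 members were called in control development and 44 after RFR. At an unadjusted p under 0.05 by limma, 62.7% and 49% of the members passed in that fit, beside 69.5% and 68.7% of all tested genes.

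Of 78 named changes, 15 took the other sign under some setting, 0 of which were called. The cause was not tested. Quantile normalization gave -0.075 for atp5f1 and -0.048 for atp5c1 in control development. Median-ratio scaling gave -0.089 for sdhdb, -0.037 for cox7a2a, -0.0016 for cox6b2, -0.030 for atp5f1 and -0.012 for atp5c1 there, and -0.029 for sdhdb and -0.012 for uqcrq between RFR and control at 48 hpf. Replicates 1 to 3 gave 0.011 for cox5aa in control development, 0.060 for sdhda at 48 hpf and -0.0046 for atp5g3b in the difference of effects.

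With single libraries left out, control development ran from -0.036 to 0.019 for cox5aa, -0.27 to 0.0033 for cox6b1 and -0.013 to 0.068 for sdhdb. RFR against control at 48 hpf ran from -0.16 to 0.030 for atp5j2, -0.24 to 0.017 for sdhda and -0.017 to 0.077 for sdhdb, and at 120 hpf from -0.043 to 0.066 for sdha. The difference of effects ran from -0.0083 to 0.11 for sdhc and -0.40 to 0.038 for sdhda.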

Other observations

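Some complex IV genes varied widely among libraries of 1 group at 48 hpf, and 3 of them, chosen after their values were seen, are given without a test. The subunit 4 paralog cox4i1l stood at 16.87, 10.02, 11.39 and 2.80 FPKM in RFR 48 hpf replicates 1 to 4. The subunit 7A gene cox7a2b stood at 67.86, 52.20, 50.67 and 37.82 FPKM there and at 55.45, 70.06, 50.45 and 42.78 FPKM in controls. The subunit 6B gene cox6b1 stood at 76.17, 72.29, 67.45 and 43.95 FPKM after RFR and at 91.61, 97.66, 55.11 and 76.01 FPKM in controls. All 3, cox4i1l included, were highest in control replicate 2, and highest in replicate 1 and lowest in replicate 4 after RFR.

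Markers of other tissues moved in control development as follows. Of 10 neuron markers 7 rose and 2 fell, of 8 lens markers 5 rose and 1 fell, of 6 intestine markers 5 rose and 0 fell, and of 9 liver markers 2 rose and 0 fell. Over all 8 marker lists 54 of 73 genes were called, or 74%, beside 66.1% of all tested genes. The summed level of the lens markers was 1754 to 2142 FPKM in controls and 2030.2 to 2649 FPKM after RFR at 48 hpf, with 0 of 8 called. By limma 0 of 73 markers of the 8 tissues were called between RFR and control at either stage, and at an unadjusted p under 0.05 there were 17 at 48 hpf (23.3%, beside 9.47% of all tested genes) and 1 at 120 hpf (1.37%, beside 4.13%). Their part in the member values was not tested.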
